A study of Rattus norvegicus with 31 samples.

Results

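Cytokines and chemokines are secreted proteins that draw immune cells into a tissue and set how those cells behave. The 5 genes described here were chosen by symbol, with earlier results of these data known. They are 5 of the 20207 rows of the deposited count matrix: the chemokines Cxcl12, Ccl5 and Cxcl11 and the cytokines Il33 and Il18. CXCL12 is made by stromal, endothelial and epithelial cells and acts through the receptor CXCR4, with ACKR3 as a scavenging receptor. CCL5, also called RANTES, is made mainly by activated T cells and NK cells and is carried by platelets. CXCL11 is an interferon-induced ligand of CXCR3 that also binds ACKR3. IL-33 is an alarmin held in the nucleus of stromal, endothelial and epithelial cells and sensed through ST2, the product of Il1rl1. IL-18 is stored as a precursor, much of it in gut epithelium, until caspase-1 cuts it. It is held in check by the decoy IL-18BP.

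RNA was measured in kidney cortex and colon of rats (Rattus norvegicus) in 3 groups: high salt with calcitriol (CAL), the high-salt model (HS) and the normal control (NC). Calcitriol is the active hormone form of vitamin D, and the HS and CAL groups share the high salt. The cortex had 6 CAL, 4 HS and 5 NC libraries, and the colon had 6 CAL, 5 HS and 5 NC libraries, 31 in all. Strain, sex, age, dose and duration were not used here. The labels do not say whether a cortex and a colon library of the same number came from 1 rat, nor that each replicate is a separate animal, so each p measures the spread between these libraries, which may be technical.

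Total counts ran from 289529 to 2265164 in the cortex libraries and from 267976 to 918820 in the colon libraries. A count of 0 allows up to 1.32 to 10.4 CPM, counts scaled to a fixed library total, in the cortex and 3.27 to 11.2 CPM in the colon, taking 3 counts as the limit and for counting error only. The 14 kidney tubule and podocyte markers summed to between 14040 and 22341 CPM in the cortex libraries, against 61.9 to 198 CPM in the colon libraries.

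One colon library went against its label. In the library labelled colon HS replicate 3, all 8 genes chosen as ileal markers after the data were seen lay above all 15 other colon libraries, and all 4 colonic markers lay below them. Fabp6, the ileal bile acid-binding protein, had 13820 CPM there and at most 15.2 CPM in the others, and Slc10a2, the ileal bile acid transporter, had 163 CPM and at most 1.52 CPM. Hoxb13, a homeobox gene of the hindgut, had 0 counts there, against 376 to 1017 CPM in the others. The members' colon comparisons below are therefore given with and without that library.

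The 300 bases around the transcript start, 250 before and 50 after, are shown for Cxcl12 and Il33, whose level changed in the high-salt cortex, for Il18, which set the tissues apart, and for Cxcl11, the interferon-induced member. They are the RefSeq promoters of build GRCr8, all on the plus strand, which held 4 of the 5 members. Ccl5 was not matched. Il33 has a pair of annotated starts. The windows are chr4:152060531-152060830 for Cxcl12, chr1:237115323-237115622 and chr1:237134696-237134995 for Il33 starts 1 and 2, chr8:59801822-59802121 for Il18 and chr14:15973478-15973777 for Cxcl11. Capitals mark the matched motifs.
Cxcl12: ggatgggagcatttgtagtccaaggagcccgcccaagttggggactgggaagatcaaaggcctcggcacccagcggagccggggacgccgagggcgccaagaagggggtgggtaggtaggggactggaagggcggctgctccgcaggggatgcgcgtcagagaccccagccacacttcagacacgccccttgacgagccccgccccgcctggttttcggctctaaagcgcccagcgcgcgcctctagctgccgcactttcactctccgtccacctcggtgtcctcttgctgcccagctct
Il33 start 1: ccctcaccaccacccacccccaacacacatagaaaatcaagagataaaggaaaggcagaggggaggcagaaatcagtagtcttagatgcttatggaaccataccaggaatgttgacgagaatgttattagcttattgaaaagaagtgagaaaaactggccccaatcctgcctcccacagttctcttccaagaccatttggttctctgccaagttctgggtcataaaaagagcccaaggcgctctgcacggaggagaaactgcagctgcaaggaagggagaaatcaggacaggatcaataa
Il33 start 2: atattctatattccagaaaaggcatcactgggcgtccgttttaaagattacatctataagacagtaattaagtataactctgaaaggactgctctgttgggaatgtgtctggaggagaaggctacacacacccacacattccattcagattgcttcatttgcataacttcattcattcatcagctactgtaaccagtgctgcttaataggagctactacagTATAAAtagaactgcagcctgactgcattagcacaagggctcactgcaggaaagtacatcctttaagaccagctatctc
Il18: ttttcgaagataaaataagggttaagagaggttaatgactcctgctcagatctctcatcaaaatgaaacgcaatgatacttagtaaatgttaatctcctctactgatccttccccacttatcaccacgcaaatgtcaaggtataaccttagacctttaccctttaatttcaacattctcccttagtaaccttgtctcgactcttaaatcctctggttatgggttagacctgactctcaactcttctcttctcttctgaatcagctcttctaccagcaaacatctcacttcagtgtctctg
Cxcl11: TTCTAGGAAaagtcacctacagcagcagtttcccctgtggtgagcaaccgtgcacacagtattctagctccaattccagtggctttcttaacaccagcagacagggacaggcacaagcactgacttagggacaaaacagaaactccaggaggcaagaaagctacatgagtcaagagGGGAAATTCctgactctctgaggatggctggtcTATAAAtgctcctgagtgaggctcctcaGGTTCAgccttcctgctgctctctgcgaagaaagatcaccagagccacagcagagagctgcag

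The Cxcl11 window held 4 motifs that do not overlap one another, more than any of the other windows shown. TTCNNNGAA, the letters of a gamma-activated site bound by STAT factors, began 250 bases before the start, and GGGANNTTC, an NF-kB pattern, began 74 bases before it. TATAAA began 41 bases before the start and GGTTCA, a repeat unit bound by the vitamin D receptor, 13 bases before it. The second Il33 start had TATAAA 29 bases before it. The Cxcl12, Il18 and first Il33 windows held none of these motifs, and no window held AGGTCA, the other such repeat unit. Among all 33469 rat promoters in the table, TTCNNNGAA was found in 8.87%, GGGANNTTC in 4.05%, GGTTCA in 11.7% and AGGTCA in 16.2%, on both strands, and TATAAA on the gene's strand in 8.8%. TATAAA and GGGANNTTC were added after the sequences were seen. GC content was 66.67% for Cxcl12, 51% for Cxcl11, 47% and 41% for Il33 starts 1 and 2 and 39.33% for Il18, against a median of 51.67% over all promoters. A match is only a description of letters.

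High salt in the kidney cortex: Cxcl12 and Il33 rose and Ccl5 fell relative to NC, while Cxcl11 was higher without passing the test and Il18 was too low to be tested. These 3 of the 4 members tested passed an adjusted p of 0.05 with edgeR's quasi-likelihood test, where 11% of the 7524 genes tested did, 553 higher and 278 lower. Adjusted p-values are Benjamini-Hochberg values over those genes. The median log2 fold change was 0.63 over the 4 members and -0.01 over all genes tested. The members were chosen with earlier results of these data known, so these values do not test them as a set. Fewer cells of a type and less RNA per cell cannot be told apart in such tissue RNA. Levels are TMM-scaled CPM within the tissue and are not divided by gene length.

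Il33 had 295, 346, 291 and 317 CPM in the HS cortex libraries, against 254, 189, 252, 146 and 234 CPM in the NC cortex libraries. All 4 HS libraries lay above all 5 NC libraries, a separation seen in either direction in 13.1% of genes tested. The means were 312 ± 25.5 CPM in HS and 215 ± 46.6 CPM in NC (SD, n = 4 and 5). This was a log2 fold change of 0.55 (SE 0.14, 95% interval 0.25 to 0.84, edgeR adjusted p = 0.0171).

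Cxcl12 had 149, 209, 144 and 117 CPM in the HS cortex libraries, against 120.5, 86.7, 82.8, 104 and 80.1 CPM in the NC cortex libraries. The groups overlapped at 1 point, where HS replicate 4 lay below NC replicate 1. The mean was 155 ± 38.9 CPM in HS and 94.9 ± 17.2 CPM in NC (SD, n = 4 and 5), a log2 fold change of 0.71 (SE 0.18, 95% interval 0.34 to 1.08, edgeR adjusted p = 0.0158). HS replicate 2 was the highest library for Cxcl12 and for Il33, and without it the adjusted p was 0.10 for Cxcl12 (log2 fold change 0.52) and 0.0631 for Il33 (0.50).

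Ccl5 had 2.22, 16.8, 10.5 and 7.16 CPM in the HS cortex libraries, which are 1, 11, 3 and 6 reads, against 22.7, 19.5, 25.2, 21.7 and 28.4 CPM in the NC cortex libraries. No HS library reached the lowest NC value, a separation read against the same 13.1%. Its mean was 9.17 ± 6.11 CPM in HS and 23.5 ± 3.40 CPM in NC (SD, n = 4 and 5), a log2 fold change of -1.29 (SE 0.41, 95% interval -2.14 to -0.44, edgeR adjusted p = 0.0437). The call rests on few reads: it was lost without any 1 of 7 libraries (NC replicates 1, 3, 4 and 5 and HS replicates 1, 3 and 4), with an adjusted p of up to 0.143. Blood transcripts moved with it: the 7 erythrocyte markers, 6 of which passed as lower in HS, summed to 1039 to 1915 CPM in HS and 3932 to 20347 CPM in NC, and Pf4, the platelet chemokine, averaged 3.91 ± 3.14 CPM in HS and 16.4 ± 2.65 CPM in NC (SD, n = 4 and 5). The 18 T and NK cell markers, none of which passed the filter on low counts in the cortex, summed to 28.6 to 70.1 CPM in HS and 33.5 to 85.1 CPM in NC. Their part in the Ccl5 difference was not tested.

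Cxcl11 had 28.8, 32.0, 14.0 and 13.1 CPM in the HS cortex libraries, against 18.4, 17.0, 7.20, 7.88 and 8.34 CPM in the NC cortex libraries. A pair of HS libraries lay above all NC libraries and the other pair among them. The log2 fold change of 0.81 (SE 0.37) had a 95% interval of 0.04 to 1.58 and did not pass (edgeR adjusted p = 0.158). Il18 had 13.3, 18.3, 3.51 and 8.35 CPM in the HS cortex libraries and 5.67, 13.6, 3.60, 5.91 and 6.67 CPM in the NC cortex libraries, from 1 to 12 reads in HS and 2 to 16 in NC. Fitted with no filter on low counts, its log2 fold change was 0.55 (95% interval -0.42 to 1.52, edgeR adjusted p = 0.607).

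**Figure D1:**
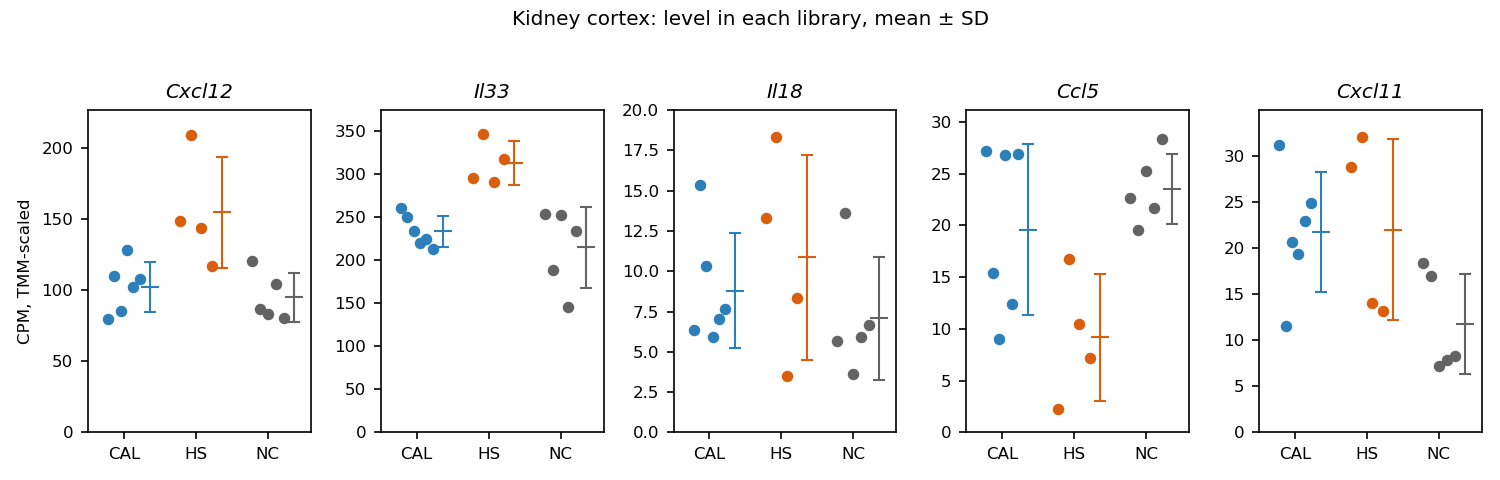
TMM-scaled CPM (y axis) of the 5 genes in each kidney cortex library (points) of the CAL, HS and NC groups, with the mean and SD beside each group. The 4 HS libraries lie above all NC libraries for Il33 and below all of them for Ccl5.

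Calcitriol under high salt in the cortex: no member passed between CAL and HS. Of the 4 members tested 0 passed edgeR at an adjusted p of 0.05, where 0.758% of all genes tested did, and 3 had an unadjusted p under 0.05, as did 16.2% of all genes. DESeq2 and voom also called 0, and edgeR with no filter on low counts called 1, Cxcl12 (adjusted p = 0.0485). This comparison and that of HS with NC share the HS libraries, so their directions are not independent.

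Il33 ran from 213 to 260 CPM with a median of 229 CPM in the 6 CAL cortex libraries, all below the 4 HS libraries, a separation seen in 4.17% of genes tested. Relative to HS the log2 fold change was -0.42 (SE 0.14, 95% interval -0.70 to -0.14, edgeR adjusted p = 0.134). Cxcl12 ran from 79.7 to 128 CPM with a median of 105 CPM in CAL, and HS replicate 4 lay within that range (log2 fold change -0.62, SE 0.17, 95% interval -0.98 to -0.27, edgeR adjusted p = 0.0806). Ccl5 ran from 9.04 to 27.2 CPM with a median of 21.1 CPM in CAL. That was a log2 fold change of 1.10 (SE 0.40, 95% interval 0.28 to 1.93, edgeR adjusted p = 0.177), and 5 of 6 CAL libraries lay above the HS mean. The erythrocyte marker sum was 3613 to 6958 CPM in CAL, also above HS, and its part was not tested.

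Cxcl11 overlapped widely between CAL and HS. It ran from 11.5 to 31.2 CPM with a median of 21.8 CPM in CAL, and its mean was 21.8 ± 6.53 CPM in CAL and 22.0 ± 9.83 CPM in HS (SD, n = 6 and 4). Its log2 fold change was 0.05 (95% interval -0.62 to 0.72, edgeR adjusted p = 0.969). Il18 had a median of 7.37 CPM in CAL, from 4 to 14 reads, and was not tested.

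Between CAL and NC in the cortex, 0 of the 4 members tested passed edgeR, as did 0% of all genes tested, and 1 member, Cxcl11, had an unadjusted p under 0.05, as did 11.9% of all genes. DESeq2 and voom called 0 members too. Cxcl11 averaged 21.8 ± 6.53 CPM in CAL and 11.8 ± 5.46 CPM in NC (SD, n = 6 and 5), a log2 fold change of 0.86 (SE 0.32, edgeR adjusted p = 0.289). The log2 fold changes of Cxcl12, Il33 and Ccl5 were 0.08 (95% interval -0.26 to 0.42), 0.13 (-0.14 to 0.39) and -0.19 (-0.81 to 0.43). No member separated CAL from NC without overlap, as 1.06% of genes tested did.

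High salt in the colon: no member passed between HS and NC. Of the 4 members tested 0 passed edgeR, as did 0% of the 7217 genes tested, and 1 member, Ccl5, had an unadjusted p under 0.05, as did 8.51% of all genes. Voom called 0 of the 4 members. DESeq2 called 0 of the other 3 and gave no adjusted p for Ccl5 in any colon comparison. None separated the groups without overlap, as 1.4% of genes tested did. Without the library labelled HS replicate 3, 0 of 4 passed, against 0.0129% of 7744 genes tested.

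Ccl5 had 29.5, 4.49, 1114, 9.93 and 6.62 CPM in the HS colon libraries, against 27.7, 22.0, 41.4, 19.7 and 43.4 CPM in the NC colon libraries. The value of 1114 CPM, from 403 reads, belongs to the library labelled HS replicate 3, which holds 61.1% of all Ccl5 reads of the 16 colon libraries. The other HS libraries averaged 12.6 ± 11.5 CPM (SD, n = 4), with 3 of them below all NC libraries. The log2 fold change was 2.92 (SE 1.03, edgeR adjusted p = 0.450) with that library and -1.05 (SE 0.56, 95% interval -2.20 to 0.11, adjusted p = 0.759) without it. The 7 erythrocyte markers summed to 77.4 to 397 CPM in HS colon and 480 to 2645 CPM in NC colon, with the 77.4 CPM in that library. Of the 3 tested 0 passed edgeR. Pf4 averaged 51.8 ± 36.9 CPM in HS and 73.2 ± 40.0 CPM in NC (SD, n = 5 each). Their part in Ccl5 was not tested.

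Some immune transcripts stood high in the library labelled HS replicate 3. The T and NK cell markers summed to 1709 CPM there, against 92.0 to 554 CPM in the other 15 colon libraries, and the macrophage and dendritic cell markers to 5255 CPM, against 1145 to 2918 CPM. Other immune markers lay within the range of those 15 libraries. The B and plasma cell markers summed to 5991 CPM, against 1299 to 6358 CPM, and the neutrophil and mast cell markers to 382 CPM, against 126 to 445 CPM. Chosen after their values were seen, Gzma, a granule protease of killer lymphocytes, had 393 CPM, against 0 to 34.6 CPM. Cxcl9 and Cxcl10, the other CXCR3 ligands, had 88.5 CPM, against 0 to 14.0 CPM, and 66.3 CPM, against 0 to 38.5 CPM. The receptor Cxcr3 had 24.9 CPM, against at most 9.93 CPM. The interferon factor Irf1 had 442 CPM, against at most 226 CPM. The part of these cells or of the gut segment in the Ccl5 value was not tested.

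Cxcl11 was below the filter on low counts in the colon, and its highest value, 44.2 CPM from 16 reads, lay in the same library. The other HS libraries had 4.54, 2.24, 2.48 and 3.31 CPM, against 7.38, 3.14, 8.27, 0 and 8.35 CPM in the NC libraries. The CAL libraries ran from 0 to 21.0 CPM with a median of 2.29 CPM, and the 21.0 CPM of CAL replicate 1, from 18 reads, was the other high value.

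Il18 had 217, 164, 47.0, 129 and 215 CPM in the HS colon libraries, against 131, 187, 71.7, 196 and 164 CPM in the NC colon libraries. The library labelled HS replicate 3 was the lowest of all 16. HS against NC gave a log2 fold change of 0.04 (SE 0.32, 95% interval -0.62 to 0.70, edgeR adjusted p = 0.991), and 0.26 (95% interval -0.28 to 0.80) without that library. Cxcl12 had 67.0, 47.1, 33.2, 49.7 and 33.1 CPM in HS, against 75.6, 70.7, 55.2, 72.4 and 51.8 CPM in NC. Only HS replicate 1 lay above the NC mean (log2 fold change -0.47, SE 0.29, 95% interval -1.07 to 0.13, edgeR adjusted p = 0.690, and -0.37 without the library labelled HS replicate 3).

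Il33 varied widely in the HS colon libraries, with 102, 233, 127, 166 and 387 CPM, against 125, 152, 138, 118 and 250.5 CPM in the NC colon libraries. The groups overlapped, with HS replicate 5 the highest and HS replicate 1 the lowest of the 10. The log2 fold change was 0.35 (SE 0.34, 95% interval -0.36 to 1.07, edgeR adjusted p = 0.833). It was 0.47 (adjusted p = 0.869) without the library labelled HS replicate 3. The 10 smooth muscle markers varied between libraries: their sum was 29499 CPM in HS replicate 2 and 19259 CPM in HS replicate 5 and 2665 to 4357 CPM in the other HS libraries, against 3514 to 18908 CPM in NC. HS replicates 2 and 5 were also the HS libraries with the most Il33. In NC the most muscle markers, 18908 CPM, did not lie in replicate 5, the NC library with the most Il33. That other NC library had at most 152 CPM of Il33. The part of muscle in Il33 was not tested.

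**Figure D2:**
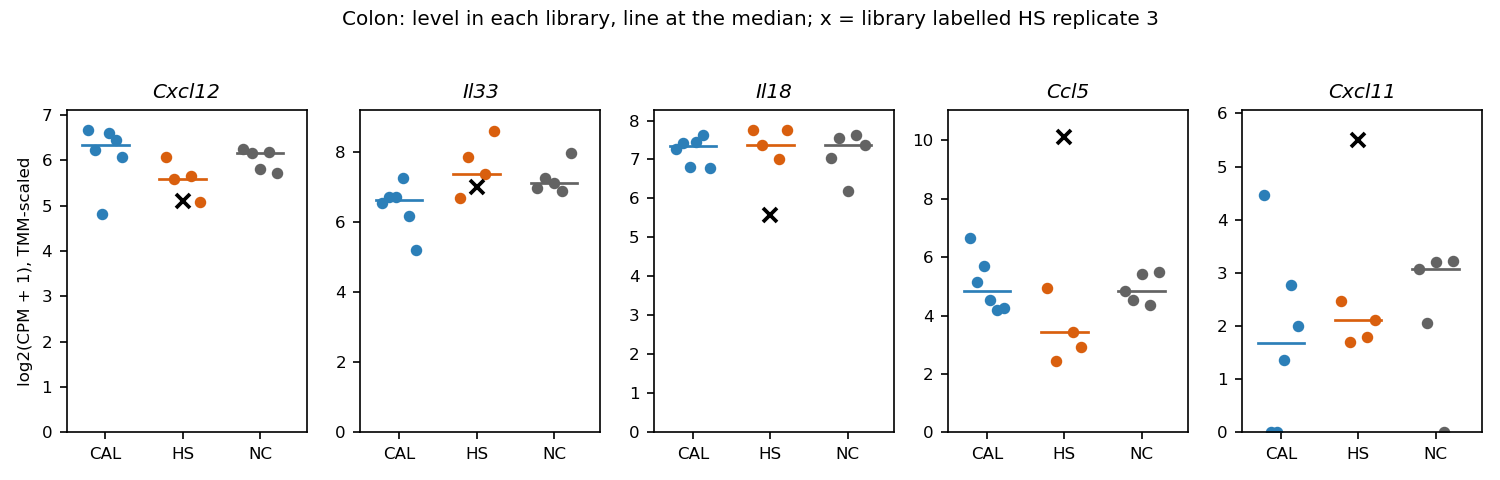
Level of the 5 genes in each colon library (points) as log2(CPM + 1), TMM-scaled, in the CAL, HS and NC groups, with a line at the group median and a cross for the library labelled HS replicate 3. The cross lies far above the other HS libraries for Ccl5 (1114 CPM) and Cxcl11 (44.2 CPM) and below all other libraries for Il18 (47.0 CPM).

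Calcitriol under high salt in the colon: no member passed between CAL and HS, and Il33 had the smallest p of the 4. Of the 4 members tested 0 passed edgeR, against 0.0139% of genes tested, and 3 had an unadjusted p under 0.05, as did 10.5% of all genes. Voom called 0 of the 4 and DESeq2 0 of the 3 other than Ccl5. Il33 ran from 36.3 to 152 CPM with a median of 98.2 CPM in the 6 CAL colon libraries, all below the HS mean of 203 CPM. Il33 thus had a log2 fold change of -1.09 (SE 0.34, 95% interval -1.79 to -0.38, edgeR adjusted p = 0.345), and -1.20 (SE 0.33, adjusted p = 0.471) without the library labelled HS replicate 3. Smooth muscle markers summed to 4303 to 7918 CPM in CAL, a narrower range than in HS. In the fit to all colon libraries 0 of the 10 markers had a positive log2 fold change between CAL and HS. Their median was -0.95, and 0 passed edgeR, beside 0.0139% of genes tested. The part of muscle in Il33 was not tested.

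Cxcl12 ran from 27.0 to 102 CPM with a median of 80.9 CPM in CAL, and 5 of 6 CAL libraries lay above the HS mean of 46.0 CPM. Its log2 fold change was 0.71 (SE 0.28, 95% interval 0.13 to 1.29, edgeR adjusted p = 0.372) and 0.62 (adjusted p = 0.588) without the library labelled HS replicate 3. Ccl5 ran from 17.4 to 99.3 CPM with a median of 28.1 CPM in CAL. Against HS its log2 fold change was -2.45 (SE 0.95, edgeR adjusted p = 0.368) with that library and 1.5 (SE 0.54, 95% interval 0.39 to 2.61, adjusted p = 0.504) without it. Il18 ran from 109 to 195 CPM with a median of 162 CPM in CAL and did not differ detectably from HS (log2 fold change -0.02, 95% interval -0.65 to 0.62, edgeR adjusted p = 0.990, and -0.24, -0.76 to 0.28, without the library labelled HS replicate 3). No member separated CAL from HS without overlap, as 0.527% of genes tested did.

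Between CAL and NC in the colon, 0 of the 4 members tested passed edgeR, as did 0% of genes tested. Voom called 0 of the 4 and DESeq2 0 of the 3 other than Ccl5. Il33 alone had an unadjusted p under 0.05, as did 3.85% of all genes. It averaged 93.6 ± 38.5 CPM in CAL and 157 ± 53.9 CPM in NC (SD, n = 6 and 5), a log2 fold change of -0.73 (SE 0.34, 95% interval -1.43 to -0.03, edgeR adjusted p = 1.0), with all 6 CAL libraries below the NC mean. It was also -0.73 without the library labelled HS replicate 3. The log2 fold changes of Cxcl12, Il18 and Ccl5 were 0.25 (95% interval -0.31 to 0.81), 0.02 (-0.61 to 0.65) and 0.47 (-1.68 to 2.61), and without the library labelled HS replicate 3 they were 0.25 (-0.29 to 0.80), 0.02 (-0.47 to 0.51) and 0.46 (-0.48 to 1.40). No member separated the groups without overlap, as 0.679% of genes tested did.

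**Figure D3:**
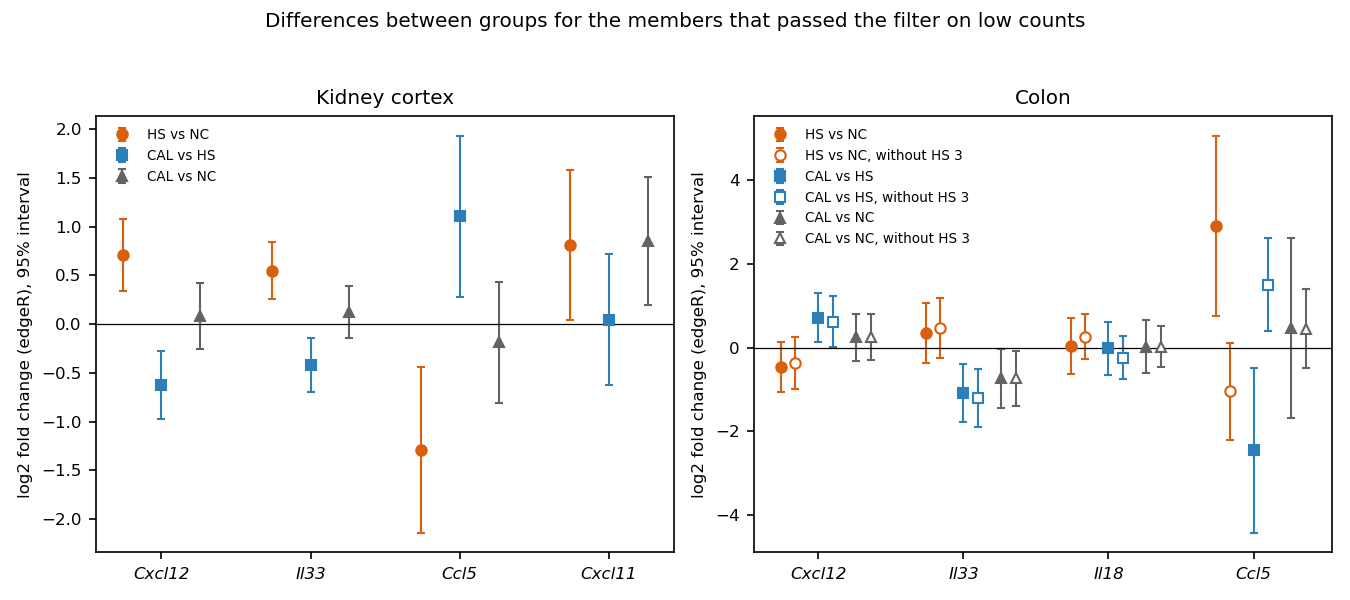
Log2 fold change with its 95% interval from edgeR (y axis) for the members that passed the filter in the cortex and the colon, for HS vs NC, CAL vs HS and CAL vs NC, with open symbols for the colon fits without the library labelled HS replicate 3. Colon Ccl5 changes sign between 2.92 and -1.05 for HS vs NC, while the cortex intervals of Cxcl12, Il33 and Ccl5 for HS vs NC exclude 0.

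**Figure D4:**
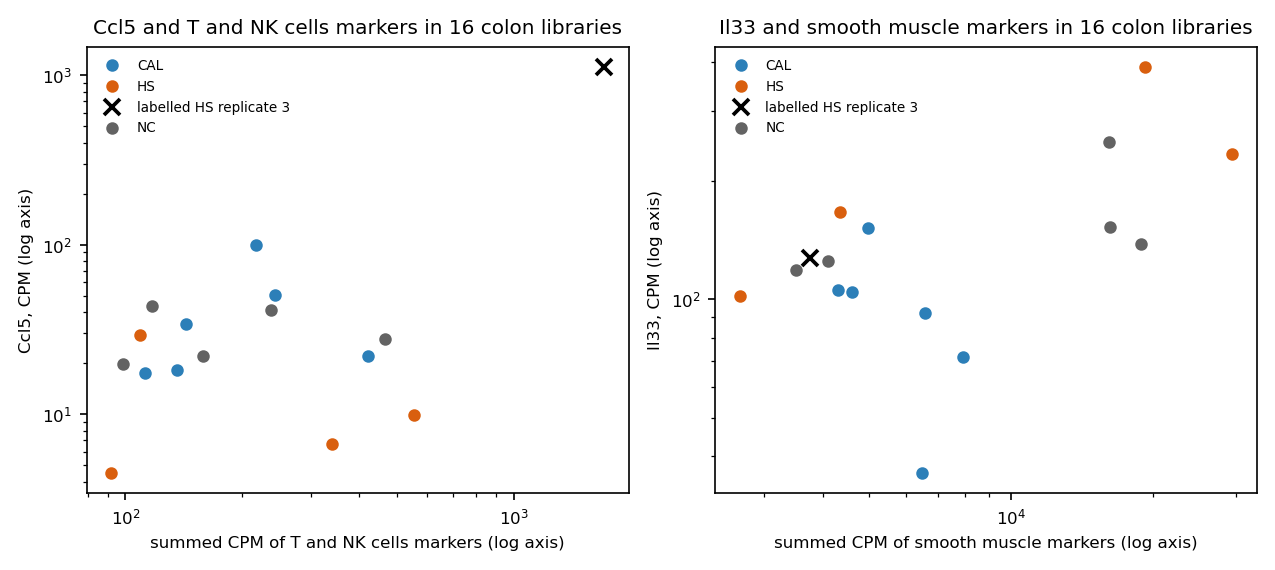
Ccl5 against the summed T and NK cell markers and Il33 against the summed smooth muscle markers in the 16 colon libraries, in CPM on log axes, coloured by group. The library labelled HS replicate 3 lies apart at 1114 CPM of Ccl5 and 1709 CPM of T and NK cell markers, and the highest Il33, 387 CPM, lies at 19259 CPM of smooth muscle markers.

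Difference between tissues in the response: Cxcl12 was higher with high salt in the cortex and lower in the colon, but the difference did not pass. The HS effect in the colon minus that in the cortex was -1.13 for Cxcl12 on the log2 scale (SE 0.33, 95% interval -1.81 to -0.45, edgeR adjusted p = 0.122). Of the 3 members tested in both tissues 0 passed, against 0.25% of the 5992 genes tested, and 2 had an unadjusted p under 0.05, as did 15.6% of all genes. Voom called 0 members. Without colon HS replicate 1 the Cxcl12 difference was -1.36 and passed (adjusted p = 0.0370), and without the library labelled colon HS replicate 3 it was -1.03 (adjusted p = 0.142). For Il33 the difference was -0.18 (95% interval -0.96 to 0.59, adjusted p = 0.854). For Ccl5 it was 4.22 (SE 1.39, adjusted p = 0.153) with the library labelled HS replicate 3 and 0.33 (95% interval -1.16 to 1.83) without it.

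The CAL against HS effect in the colon minus that in the cortex was 1.33 for Cxcl12 (SE 0.32, 95% interval 0.68 to 1.98, edgeR adjusted p = 0.107), the 11th smallest p of 5992 genes. Of the 3 members 0 passed, as did 0% of genes tested, and 2 had an unadjusted p under 0.05, as did 10.7% of all genes. Voom called 0 members. Without colon HS replicate 1 it was 1.56 and passed (adjusted p = 0.0166), and it was 1.24 (adjusted p = 0.204) without the library labelled colon HS replicate 3. This contrast and the preceding one share the HS libraries. For Il33 it was -0.64 (95% interval -1.40 to 0.11, adjusted p = 0.551). For Ccl5 it was -3.50 (SE 1.33, adjusted p = 0.352), and 0.38 (adjusted p = 0.907) without the library labelled HS replicate 3.

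Control colon and control cortex: Il18 was the member that set the tissues apart. On a scale shared by both tissues, Il18 averaged 143 ± 48.6 CPM in the NC colon and 7.37 ± 4.17 CPM in the NC cortex (SD, n = 5 each), with no overlap. Its log2 fold change was 4.12 (SE 0.38, 95% interval 3.36 to 4.88, edgeR adjusted p = 1.26e-11). Il18 passed the filter on low counts in the colon only and Cxcl11 in the cortex only, so their directions were partly set by the filter. Cxcl12 was lower in the colon, at 62.1 ± 10.7 CPM in the NC colon and 97.8 ± 17.6 CPM in the NC cortex, with no overlap (log2 fold change -0.65, SE 0.23, edgeR adjusted p = 0.0157). That call was lost without cortex NC replicate 1 (0.0511) and without colon NC replicate 3 (0.0531) or 5 (0.0549). Il33 at -0.56 (adjusted p = 0.0727), Cxcl11 at -1.38 (adjusted p = 0.0975) and Ccl5 at 0.25 (adjusted p = 0.823) did not pass. With voom Il33 (0.0175) and Cxcl11 (0.0112) passed, and Il33 passed with DESeq2 size factors (0.0494). So 2 of 5 members passed and 2 of 5 did not overlap, against 58.8% and 47.9% of the 9128 genes tested.

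The order of the 6 groups, on that shared scale and without the library labelled colon HS replicate 3, differed from member to member. Il33 was highest in HS cortex (313 ± 27.0 CPM), followed by CAL cortex (239 ± 22.0), NC cortex (221 ± 46.7), HS colon (210 ± 114), NC colon (149 ± 51.3) and CAL colon (90.4 ± 37.7 CPM). Only the first and last steps of that order exceeded the larger SD of the neighbours. Cxcl12 ran from HS cortex (155 ± 38.4 CPM) through CAL cortex (104 ± 16.6), NC cortex (97.8 ± 17.6), CAL colon (73.1 ± 26.6) and NC colon (62.1 ± 10.7) to HS colon (46.7 ± 13.9 CPM). Here too only the first and last steps exceeded the larger SD.

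For Il18, HS colon (172 ± 42.0 CPM), CAL colon (147 ± 34.4) and NC colon (143 ± 48.6) did not differ beyond their spread. They were followed, past the only step larger than the SD, by HS cortex (10.9 ± 6.36), CAL cortex (8.96 ± 3.52) and NC cortex (7.37 ± 4.17 CPM). Ccl5 ran from CAL colon (38.7 ± 30.5 CPM) through NC colon (29.3 ± 10.3), NC cortex (24.2 ± 3.2), CAL cortex (20.1 ± 8.60) and HS colon (12.1 ± 11.2) to HS cortex (9.19 ± 6.10 CPM), with no step beyond the larger SD. Cxcl11 was highest in CAL cortex (22.4 ± 7.13 CPM) and HS cortex (22.0 ± 9.77), then NC cortex (12.2 ± 5.84), NC colon (5.16 ± 3.52), CAL colon (5.06 ± 7.79) and HS colon (2.99 ± 1.03 CPM). The steps on each side of NC cortex exceeded the larger SD. With the library labelled colon HS replicate 3 included, colon HS stood at 219 ± 462 CPM for Ccl5, the highest mean of the 6, at 10.7 ± 17.2 CPM for Cxcl11, at 146 ± 67.7 CPM for Il18, at 192 ± 107 CPM for Il33 and at 43.6 ± 13.9 CPM for Cxcl12 (SD, n = 5).

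Among genes for processing and release of the members, Casp1, Nlrc4 and Pycard were higher in the control colon and Dpp4 and Mme lower. Of the 17 genes listed for processing and release of the members 11 were tested, with 9 higher in the NC colon and 2 lower, beside 58.8% of all genes called in either direction. Only 5 of these 11 passed the filter on low counts in the cortex. Casp1 and Nlrc4 passed in the colon only and Mme in the cortex only, so their direction was partly set by the filter. Casp1, the protease that matures IL-18, averaged 140 ± 33.4 CPM in the NC colon and 8.32 ± 2.44 CPM in the NC cortex (SD, n = 5 each), a log2 fold change of 4.01 (edgeR adjusted p = 5.41e-10). Nlrc4, an inflammasome sensor (4.04, adjusted p = 7.59e-10), and Pycard, its adaptor (2.74, 4.71e-09), were higher too. Dpp4, which trims CXCL12, CCL5 and CXCL11, was lower in the NC colon, at 88.2 ± 36.4 CPM against 842 ± 218 CPM in the NC cortex (-3.24, adjusted p = 8.21e-07). Of the processing genes tested, 5 in the cortex and 10 in the colon, 0 passed edgeR in any of the 6 comparisons of groups within a tissue. Unadjusted p-values under 0.05 are given for HS vs NC, CAL vs HS and CAL vs NC in turn. There were 1, 4 and 1 in the cortex, beside 27.3%, 16.2% and 11.9% of all genes. In the colon there were 3, 1 and 0, beside 8.51%, 10.5% and 3.85%. In the colon Dpp4 had 1476 CPM in the library labelled HS replicate 3, against 45.4 to 308 CPM in the others.

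**Figure D5:**
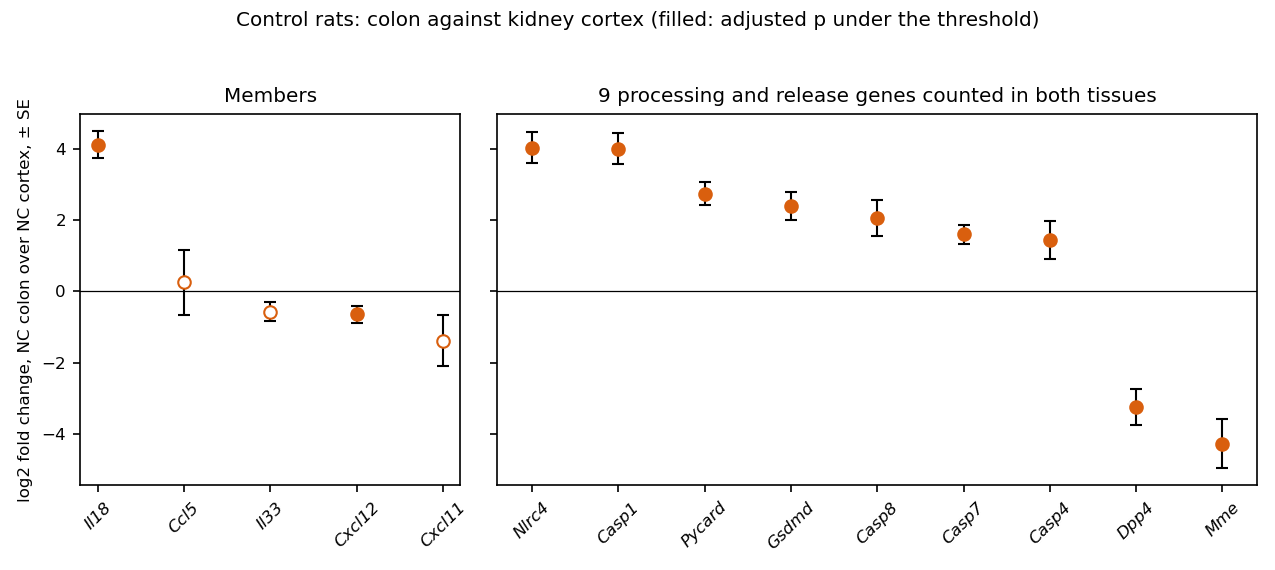
Log2 fold change (y axis, ± SE, edgeR) of NC colon over NC cortex for the 5 members and for 9 processing and release genes counted in both tissues, filled where the adjusted p was under 0.05. Il18 (4.12), Nlrc4 (4.04) and Casp1 (4.01) are higher in the colon, and Dpp4 (-3.24) is lower. Il18, Nlrc4 and Casp1 passed the filter on low counts in the colon only.

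The receptors were mostly too low to test. Of 14 receptors and decoys measured 2 were tested in the cortex and 5 in the colon, and 0 passed between groups of a tissue with edgeR. At an unadjusted p under 0.05 there were 0, beside 3.85% to 27.3% of all genes in those comparisons. Cxcr4, the CXCL12 receptor, reached at most 1.53 CPM in HS cortex and 3.34 CPM in NC cortex. Ackr3, its scavenging receptor, had 82.4 to 101 CPM in HS cortex and 65.0 to 110 CPM in NC cortex (log2 fold change 0.21, adjusted p = 0.558). Il1rl1 had 0 counts in all 4 HS cortex libraries and at most 1.8 CPM in NC cortex, and Il18r1, the IL-18 receptor, had 0 counts in all 15 cortex libraries. In the NC colon relative to the NC cortex 3 of 5 receptors tested were higher and 1 lower, beside the 58.8% of all genes called in either direction. They were Sdc1 (3.97, adjusted p = 8.64e-12), a heparan sulfate carrier of chemokines, Cxcr4 (2.84, 0.0170), where colon NC replicate 1 held 22 of the 29 reads, Il18bp (1.39, 0.0426) and Sdc4 (-0.61, 0.00864). Of these only Sdc4 passed the filter on low counts in the cortex, so the direction of the others was partly set by the filter.

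Most other chemokines and cytokines were too low to test in the high-salt and control cortex, and the counts called are read beside the 11% of all genes. Of 33 other chemokines 6 were tested and 1 passed, Pf4, which fell (log2 fold change -1.84, SE 0.49, edgeR adjusted p = 0.0196). Of 57 other cytokines measured 7 were tested and 1 rose, Kitlg, the ligand of the receptor Kit (1.13, adjusted p = 0.0139). Of 24 genes listed as interferon gamma and NF-kB factors 19 were tested, and their median log2 fold change was -0.11. The 1 that rose was Hif1a, the hypoxia-inducible factor (0.51, adjusted p = 0.0334). No STAT, IRF, JAK, interferon receptor or NF-kB gene of the list passed. Ifng itself had 0 counts in every cortex library. In the other 5 comparisons of groups within a tissue 0 genes of these 3 lists passed edgeR. At an unadjusted p under 0.05 there were 0 to 4 of the 6 to 22 genes tested per list, beside 3.85% to 16.2% of all genes. In the control colon relative to the control cortex 11 of 15 other chemokines tested were higher, beside the 58.8% of all genes called. Of those 15 only 6 passed the filter on low counts in the cortex, so the direction of the rest was partly set by the filter. The same limit holds for cytokines and interferon or NF-kB genes that passed in 1 tissue only. Cxcl14, an epithelial chemokine (6.92, adjusted p = 1.11e-13), Ccl6 (3.98, 4.21e-12) and Ccl21, which guides cells into lymphatics (3.48, 4.69e-11), had the smallest p together with Ccl11, the eosinophil chemokine, at 250 ± 53.6 CPM in the NC colon and 0 counts in the NC cortex. Of 11 other cytokines tested 4 were higher and 3 lower in the colon, among them Kitlg (1.87, 4.59e-07), Tnfsf13b, a B cell survival factor (2.45, 8.50e-04), Ctf1 (-2.35, 4.13e-07) and Il34 (-1.42, 4.30e-04). Of 22 genes tested from the interferon and NF-kB list 10 were higher, with the receptor chains Ifngr2 (3.64, 8.51e-16) and Ifngr1 (1.78, 3.49e-09), Irf8 (2.67, 1.75e-06) and Nfkbia (1.58, 6.05e-06) first by p.

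Where no gene of a list passed, the pair of smallest p is given as log2 fold change with edgeR's adjusted p. For cortex HS against NC these included Dpp4 (0.32, 0.228) among processing genes and Sdc4 (-0.14, 0.435) and Ackr3 among receptors. For cortex CAL against HS they included Sdc4 (0.18, 0.443) and Ackr3 (-0.11, 0.835), Mme (-0.69, 0.11) and Dpp4 (-0.38, 0.258), Pf4 (1.74, 0.0835) and Ccl6 (-0.53, 0.409), Kitlg (-0.55, 0.288) and Il34 (0.40, 0.375), and Hif1a (-0.29, 0.322). Pf4 thus averaged 16.6 ± 7.88 CPM in CAL and 3.91 ± 3.14 CPM in HS (SD, n = 6 and 4), beside the Ccl5 levels of those libraries.

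In the colon the genes were picked from the fit that includes the library labelled HS replicate 3. For HS against NC the pairs were Sdc4 (-0.36, 0.736) and Cxcr4 (1.10, 0.770), Dpp4 (2.18, 0.330) and Nlrc4 (-0.70, 0.511), Ccl24 (-0.65, 0.641) and Cxcl13 (2.15, 0.642), Il34 (0.91, 0.564) and Il16 (1.25, 0.682), and Irf1 (1.16, 0.330) and Irf8 (1.25, 0.39). For CAL against HS they were Cxcr4 (-1.42, 0.590) and Sdc4 (0.34, 0.661), Dpp4 (-2.22, 0.342) and Casp1 (-0.63, 0.534), Ccl20 (-1.59, 0.356) and Ccl21 (-0.59, 0.529), Tnfsf10 (1.37, 0.362) and Il16 (-1.90, 0.398), and Irf8 (-1.13, 0.345) and Nfkbia (-0.81, 0.345). The genes highest of all 16 colon libraries in that library included Cxcr4, Dpp4, Casp1, Irf1 and Irf8, with 52.5, 1476, 492, 442 and 511 CPM. Each of these differences therefore includes the value of that library. Without that library, an alternative chosen after the data were seen, 0 genes of the lists passed edgeR in the 3 colon comparisons. Of the 7744 genes tested, 0.0129% passed for HS vs NC and for CAL vs HS and 0% for CAL vs NC. In that fit 0 to 4 of the 5 to 22 genes tested per list had an unadjusted p under 0.05. These counts stand without the share of all genes, which is not given for that fit. Its HS against NC values were 0.82 (0.729) for Dpp4, 0.54 (0.948) for Cxcr4, 0.70 (0.677) for Irf1, 0.79 (0.696) for Irf8, 1.73 (0.855) for Cxcl13, 1.02 (0.869) for Il16, 0.92 (0.732) for Il34, -0.84 (0.721) for Ccl24, -0.68 (0.725) for Nlrc4 and -0.21 (0.921) for Sdc4. Its CAL against HS values were -0.86 (0.539) for Dpp4, -0.86 (0.836) for Cxcr4, 0.01 (0.992) for Casp1, -0.67 (0.592) for Irf8, -0.48 (0.613) for Nfkbia, -0.07 (0.974) for Ccl20, -0.56 (0.693) for Ccl21, 1.44 (0.504) for Tnfsf10, -1.67 (0.591) for Il16 and 0.20 (0.857) for Sdc4. The Dpp4 differences were thus smaller without it, and Casp1 and Ccl20 in CAL against HS lay near 0.

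The nearest genes by level differed between the members. Over the 15 cortex libraries, in Pearson r of log2 CPM, Cxcl12 was most like Snapin (0.85), Cab39l (0.82) and Mrpl51 (0.82), and Il33 most like LOC691807 (0.87), Cd48 (0.86) and Nipsnap2 (0.84). Ccl5 was most like Neurl3 (0.90), Gne (0.89) and Patz1 (0.88), and Cxcl11 most like Higd1a, Ythdf3 and Mettl6 (0.81, 0.81 and 0.79). Cxcl12 and Il33 had an r of 0.53 with each other. Over 14 colon libraries, without HS replicates 3 and 4, the nearest genes were Adtrp (0.83) for Cxcl12, Fstl1 (0.90) for Il33, Btbd9 (0.86) for Il18 and Furin (0.84) for Ccl5. Over all 16, they were St3gal3, Gpr160 and Rbks for Cxcl12 (0.80, 0.79 and 0.79), Nid1, Ints7 and Klhl21 for Il33 (0.82, 0.81 and 0.80), Pdzk1ip1, Serpinf1 and Pigs for Il18 (0.87, 0.87 and 0.84) and Lap3, Acsl5 and Ifi47 for Ccl5 (0.89, 0.88 and 0.86). Ccl5 and Il18 had an r of -0.70 over the 16 and -0.36 over the 14. HS replicate 4 did not go against its label by the segment markers, and r without replicate 3 alone was not computed. These points share group, depth and library composition, so they are given as description only.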

How the data were processed

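RNA from rat kidney cortex and colon was extracted with TRIzol and made into libraries using the TruePrep tagmentation kit, which leaves strand unmarked, per the labels' protocols. Per the submitters' processing notes, FastQC 0.11.9, Trimmomatic 0.39, HISAT2 2.1.0 and featureCounts 1.6.5 were used with the build Rnor_6.0. The annotation and strand setting were not given in the sources used here, so reads of overlapping antisense genes cannot be told apart. The authors deposited whole-number counts per gene symbol, not normalised. Of 20207 genes, 2839 had no count in any library.

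Counts were tested with edgeR 4.0.16 (quasi-likelihood, TMM) in R 4.3.3, in 1 fit per tissue to its 3 groups, after the edgeR filter (minimum count 10, minimum total 15), with Benjamini-Hochberg adjustment over all genes tested and a threshold of 0.05. Differences between tissues were fitted jointly to 6 groups over genes that passed in both tissues, and NC colon against NC cortex over genes that passed in the joint filter. Standard errors come from the quasi-likelihood F. Levels are TMM-scaled CPM, segment markers plain CPM, and likeness used log2 CPM with a prior count of 2. The fits were also run on simulated counts of independent libraries with log2 changes of 1 and 2. That run held no changes as small as those of cortex Cxcl12 and Il33 and no library against its label. It does not bear on the calls reported here. Alternatives were DESeq2 1.42.0, its size factors, limma 3.58.1 voom with library weights, other filters, the compared groups alone, a replicate block and single libraries left out. Members, lists and tests were chosen with earlier results of these data known. The rule names all 5 members, up to 4 genes of smallest p past the threshold in each list or, where none passed, the 2 of smallest p, and the 3 nearest genes by r in each tissue. The text gives list genes for HS vs NC and CAL vs HS within tissues and for the control tissues, and counts for the rest. A few genes the rule names are not reported here. Dpp4 in the tissue comparison was named after its values were seen. Among 66 pairs of same-group libraries, 0 were identical and none agreed within sampling noise.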

Additional observations from a re-analysis of the deposited data

Results flagged for a closer look

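In 4 of the 30 groups of a gene by tissue and treatment, 1 library stood apart by more than the 95% limit of Dixon's gap test, and chance marks about 1 in 20 groups. Ccl5 had 1114.13 CPM in the library labelled colon HS replicate 3, against 29.5 CPM in the next HS colon library. Cxcl11 had 44.2333 CPM in the same library, against 4.54 CPM in the next. Cxcl11 had 21.024 CPM in colon CAL replicate 1, against 5.80 CPM in the next CAL colon library, and Ccl5 was also highest of the CAL colon libraries there, at 99.3 CPM. Il33 had 250.46 CPM in colon NC replicate 5, against 152 CPM in the next NC colon library, and smooth muscle markers summed to 16128 CPM in NC replicate 5, against 3514 to 18908 CPM over the 5 NC colon libraries.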

How the results depend on the processing

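In the cortex, the calls of Cxcl12 and Il33 between HS and NC held under all 7 alternatives other than leaving out 1 library, and that of Ccl5 under 5 of 7, lost with a filter of 1 CPM in at least 4 libraries (adjusted p = 0.0554) and with the replicate block (0.0643). Leaving out 1 library gave 1 to 3 members past the threshold for cortex HS vs NC, 1 to 3 for NC colon vs NC cortex and 0 to 1 for each difference between tissues. Between CAL and HS in the cortex, 1 member passed with no filter on low counts, and between NC colon and NC cortex 4 passed with voom, Il33 and Cxcl11 being added. Colon Ccl5 reversed with voom and library weights (-0.60 for HS vs NC and 0.67 for CAL vs HS) and without HS replicates 3 and 4 together (-0.90 and 1.37), where the tissue differences of Ccl5 (CAL against HS effect, 0.25) and Il33 (HS effect, 0.023) reversed as well. Colon Il18 reversed for CAL vs HS with no filter (0.013), the 1 CPM filter (0.0096) and the replicate block (0.14) and for HS vs NC with the block (-0.0021). The cause was not tested.

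Leaving out 1 library, the log2 fold changes that reversed ranged from -0.22 to 0.32 for cortex Cxcl11 in CAL vs HS. In the colon they ranged from -0.13 to 0.26 (HS vs NC), -0.24 to 0.16 (CAL vs HS) and -0.15 to 0.14 (CAL vs NC) for Il18. For Ccl5 the ranges were -1.05 to 3.23, -3.09 to 1.5 and -0.16 to 0.64, and for Il33 -0.0090 to 0.59 in HS vs NC. The tissue differences ranged from -0.54 to 0.045 for Il33 (HS effect) and -4.20 to 0.38 for Ccl5 (CAL against HS effect).

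Shared replicate numbers were not taken as pairing: the deviations of same-numbered libraries correlated between -0.16 and 0.07 in the cortex, between -0.23 and 0.25 in the colon and between -0.04 and 0.25 across tissues, so not every pair exceeded 0.1. Across tissues the data nonetheless hint at shared numbers: 6 of 15 same-numbered pairs exceeded 0.1, against 1 of 66 others, and 19 of 30 libraries correlated best with their own number. With the replicate block 2 members passed for cortex HS vs NC and 3 for NC colon vs NC cortex, Il33 being added (adjusted p = 0.0224), and the other 7 comparisons gave 0. Numbers of genes called moved by over 1.5 times. For cortex CAL vs HS it was 57 as reported, 105 with DESeq2, 128 with no filter, 30 with the compared groups alone and 22 with the block, and for CAL vs NC 0 as reported, 28, 83, 0 and 42. With the 1 CPM filter CAL vs NC had 7. For colon HS vs NC it was 0 as reported, 15 with DESeq2 and 59 with no filter, and for CAL vs HS 1, 11 and 66, with 5 under the 1 CPM filter and 0 with voom, the block or without HS replicates 3 and 4. Colon CAL vs NC had 0 as reported and at most 2. The HS effect between tissues had 15 as reported, 64 with the block and 0 without colon HS replicates 3 and 4, and the CAL against HS effect 0 as reported and 8 with no filter. DESeq2 was run within tissues, and there it gave no adjusted p for Ccl5 in the colon. Depth limits Il18 in the cortex and Cxcl11 in the colon, where small changes were not detectable at these counts.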
